A study of Mus musculus with 6 samples.

Results

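The genes described here are 10 smooth muscle and SRF-myocardin genes, taken by symbol from the deposited count table of 13809 genes. They were 7 contractile genes (*Acta2*, *Tagln*, *Myh11*, *Cnn1*, *Smtn*, *Mylk* and *Lmod1*) and 3 genes of the transcriptional switch that controls such genes (*Srf*, *Myocd* and *Mkl1*). All 10 were among the 13804 genes tested.

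Smooth muscle cells build their contractile apparatus from a set of actin, myosin and actin-binding proteins whose genes are switched on together by serum response factor (SRF). SRF binds a DNA element called the CArG box and depends on partner proteins, of which myocardin resides in the nucleus, while the myocardin-related factor encoded by *Mkl1* is held in the cytoplasm by unpolymerised actin. In the fetal heart these genes are used in coronary and outflow vessel walls, and several of them, *Acta2* above all, are also transcribed in immature cardiomyocytes, in which *Myocd* and *Srf* drive sarcomere genes too.

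The hearts came from wild-type (WT) mouse embryos and from embryos homozygous for a constitutive *Pkm1* deletion (KO), both at embryonic day 18.5, and RNA was sequenced after removal of ribosomal RNA in 3 libraries per genotype. PKM1 is the pyruvate kinase isoform made from a transcript of *Pkm* that includes exon 9, and the deletion was placed in that exon with CRISPR/Cas9 in BDF1 hybrid zygotes. The tissue is given as heart in the labels, and the study describes it as ventricle. The comparison asked how the loss of PKM1 altered the transcriptome of the late fetal heart.

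The columns of the table carry no replicate number, so libraries are named by column order as WT a, b and c and as KO a, b and c. They held 15567624 to 19875546 counts, at which 3 counts, taken as the floor, equal 0.153 to 0.197 CPM (counts scaled to library size with the TMM factors of edgeR). This floor covers counting error only. *Pkm*, the targeted gene, averaged 1318 ± 41.1 CPM in the WT and 542 ± 10.1 CPM in the KO libraries (SD, n = 3 each). *Xist* was at 4.80 to 5.79 CPM in WT and 2237 to 2332 CPM in KO libraries, and the Y-linked *Ddx3y* was at 86.3 to 98.9 CPM in WT and 0 in every KO library, so sex and genotype cannot be told apart here. WT c stood apart from the other WT libraries: chi-square per degree of freedom over all genes was 3.24 to 3.76 for its pairs against 1.56 to 1.88 for the other pairs within a genotype and 15.5 to 18.7 between genotypes. The ribosomal RNA gene *Rn45s* was at 22350, 22400 and 25400 CPM in WT and 27450, 26560 and 26800 CPM in KO libraries, so WT c was the highest WT library and every KO library was above it, and the part of this difference in the results was not tested.

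Of the 10 genes, 3 were lower in KO hearts (*Myh11*, *Smtn* and *Myocd*) and 1 was higher (*Cnn1*) at an adjusted p below 0.05 in the quasi-likelihood test of edgeR, Benjamini-Hochberg adjusted across the whole table. Among all 13804 genes, 30.3% passed in either direction, 15.7% as lower and 14.6% as higher, so 4 of 10 was near the share of all genes. The most abundant of the contractile genes, *Acta2*, differed between genotypes by less than the spread between libraries, and the set did not move in 1 direction. The libraries of the genotypes did not overlap for 4 of the 10 genes, the same 4 that passed, beside 42.4% of all genes. Without WT c they did not overlap for 6 of 10 (*Acta2* and *Srf* being added), beside 52.7% of all genes in those 5 libraries, and *Srf* then joined *Cnn1* as higher, a call made for 14.6% of all genes in that setting too. In bulk tissue, fewer cells of a type and less RNA per cell cannot be told apart.

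**Figure D1:**
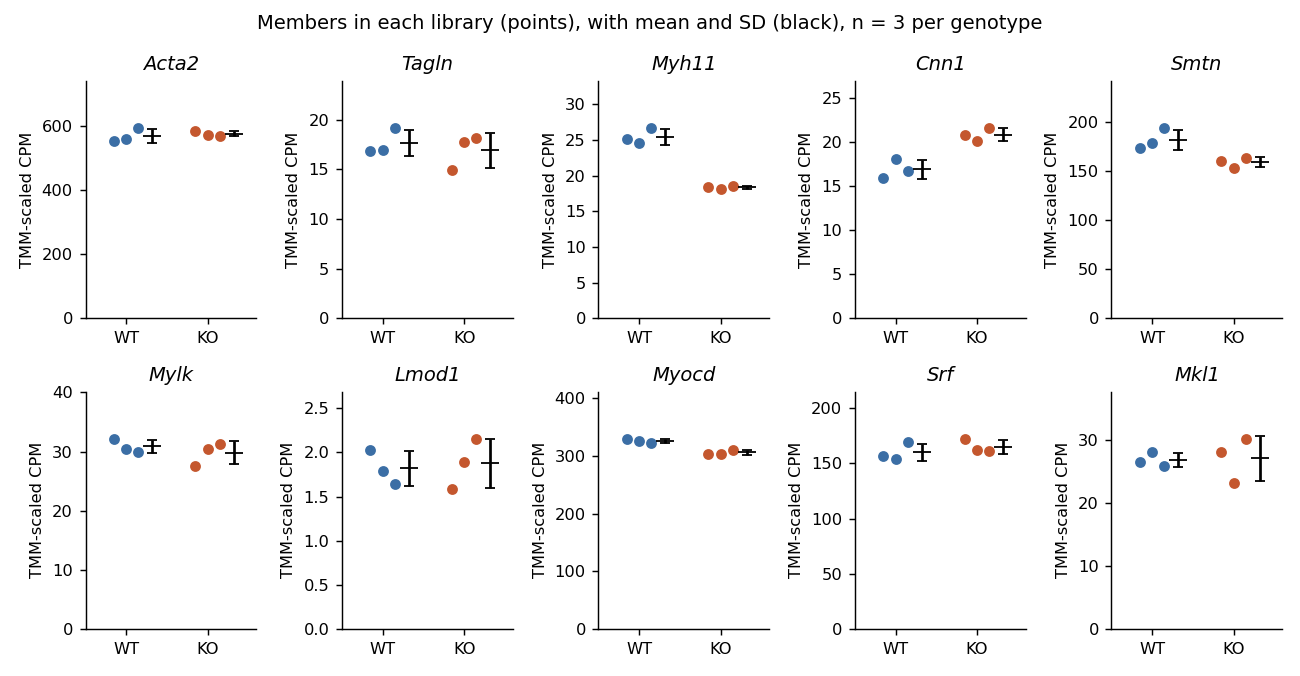
TMM-scaled CPM of the 10 genes in each of the 3 WT and 3 KO libraries, 1 panel per gene with its own axis from 0; points are libraries in column order and the black bar gives the mean with SD. The KO points of *Myh11*, *Smtn* and *Myocd* lie below all WT points, those of *Cnn1* lie above them, and the other 6 genes overlap.

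*Acta2* encodes smooth muscle alpha actin, the thin-filament actin of smooth muscle that fetal cardiomyocytes also make (ENSMUSG00000035783.9, chr19:34241090-34255590, minus strand, GRCm38). It was at 553, 558 and 592 CPM in the WT libraries and at 585, 572 and 570 CPM in the KO libraries. All KO libraries lay inside the WT range. The log2 fold change was 0.02 (95% interval -0.04 to 0.08), and the adjusted p was 0.616 (quasi-likelihood test of edgeR, Benjamini-Hochberg). Without WT c every KO library was above the remaining WT libraries, and the log2 fold change was 0.05 (adjusted p = 0.0799, same edgeR test). With 9011 to 11044 counts in each library this was the most closely bounded of the contractile genes, and its interval spanned folds of 0.974 to 1.06.

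*Myh11* encodes the smooth muscle myosin heavy chain, the motor of the thick filament, and is the member most restricted to smooth muscle (ENSMUSG00000018830.10, chr16:14194535-14291372, minus strand). It was at 25.1, 24.5 and 26.6 CPM in WT libraries and 18.4, 18.1 and 18.5 CPM in KO libraries. Every KO library was below every WT library, and the KO libraries lay closer together than the WT libraries. The mean was 25.4 ± 1.08 CPM in WT and 18.3 ± 0.244 CPM in KO (SD, n = 3 each), a fold of 0.724 (95% interval 0.653 to 0.801). On the log2 scale this was -0.47 with a standard error of 0.0718, and the adjusted p was 1.43e-05 (quasi-likelihood test of edgeR, Benjamini-Hochberg). Its counts, 286 to 480 per library, give a counting error of 4.78% in WT and 5.55% in KO libraries, and the KO spread of 1.33% was below that. The call held in all 15 alternative settings tried.

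*Cnn1* encodes calponin, an actin- and calmodulin-binding protein that dampens the myosin ATPase (ENSMUSG00000001349.5, chr9:22099216-22109630, plus strand). It was at 15.9, 18.0 and 16.7 CPM in WT and 20.8, 20.1 and 21.5 CPM in KO libraries. The lowest KO library exceeded the highest WT library, WT b. The mean rose from 16.9 ± 1.06 to 20.8 ± 0.662 CPM (SD, n = 3 each), a fold of 1.23 (95% interval 1.10 to 1.38). On the log2 scale this was 0.30 with a standard error of 0.0781, and the adjusted p was 0.00448 (quasi-likelihood test of edgeR, Benjamini-Hochberg). It too passed in all 15 alternative settings.

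*Smtn* encodes smoothelin, which binds actin filaments in contractile smooth muscle (ENSMUSG00000020439.17, chr11:3517523-3540612, minus strand). It was at 173, 178 and 193 CPM in WT and 160, 153 and 163 CPM in KO libraries. WT c was the highest library and KO b the lowest, and the genotypes did not overlap. The mean was 181 ± 10.3 CPM in WT and 159 ± 4.99 CPM in KO (SD, n = 3 each), a fold of 0.879 (95% interval 0.83 to 0.93). On the log2 scale this was -0.19 with a standard error of 0.0397, and the adjusted p was 0.00072 (quasi-likelihood test of edgeR, Benjamini-Hochberg). The call held in all 15 alternative settings, and without WT c the log2 fold change was -0.14. The annotation places the transcript *Gm11946* over 16.3% of the *Smtn* exon bases on the opposite strand, and whether the counting used strand is not given in the sources used here.

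The remaining contractile genes did not pass the test. *Tagln* encodes transgelin, an actin-bundling protein of early smooth muscle (ENSMUSG00000032085.5, chr9:45929619-45936058, minus strand). It was at 16.8, 16.9 and 19.1 CPM in WT and 14.9, 17.7 and 18.1 CPM in KO libraries, so the genotypes overlapped while WT c was high and KO a low. The log2 fold change was -0.06 (95% interval -0.24 to 0.12), and without WT c it was 0.000499. Its value is uncertain if the counting ignored strand, which the sources used here do not settle. On the opposite strand, the antisense gene *Gm48529* covers 62.4% of its exon bases and *Pcsk7* covers 5.43%. Read on either strand, 58.3% of its 50-base words occur in those genes, which largely restates the same overlap.

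*Mylk* encodes myosin light chain kinase, the calmodulin-dependent enzyme that starts contraction (ENSMUSG00000022836.11, chr16:34745210-35002420, plus strand). It was at 32.1, 30.5 and 30 CPM in WT and 27.6, 30.5 and 31.3 CPM in KO libraries, with KO a below all others and the rest intermingled. Its log2 fold change was -0.05 (95% interval -0.19 to 0.08). *Lmod1* encodes leiomodin, which nucleates actin filaments in smooth muscle (ENSMUSG00000048096.7, chr1:135324807-135368065, plus strand). It was the lowest of the set, at 2.03, 1.79 and 1.64 CPM in WT and 1.59, 1.89 and 2.15 CPM in KO libraries, from 25 to 40 counts each. The genotypes overlapped, and the 95% interval of the log2 fold change ran from -0.44 to 0.52, so changes of the size seen for *Cnn1* or *Smtn* could not be detected at this depth. The log2 fold change was 0.04, and without WT c it was -0.02.

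Among the transcription factors, *Srf* encodes the DNA-binding factor itself (ENSMUSG00000015605.6, chr17:46548329-46556175, minus strand). It was at 157, 154 and 169 CPM in WT and 172, 162 and 161 CPM in KO libraries. WT c and KO a were the high libraries of their groups, and the groups overlapped. The log2 fold change was 0.05 (95% interval -0.03 to 0.13), and the adjusted p was 0.35 (quasi-likelihood test of edgeR, Benjamini-Hochberg). Without WT c it was 0.09 and passed, with an adjusted p of 0.0363 from the same edgeR test, so whether *Srf* was called turned on that library.

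*Myocd* encodes myocardin, the coactivator restricted to heart and smooth muscle (ENSMUSG00000020542.18, chr11:65176561-65269989, minus strand). It was at 329, 325 and 322 CPM in WT and 304, 303 and 311 CPM in KO libraries. Each genotype was tightly grouped and every KO library was below every WT library. The mean went from 325 ± 3.78 to 306 ± 4.25 CPM (SD, n = 3 each), a change of -5.88% and a log2 fold change of -0.09 (95% interval -0.15 to -0.03). The adjusted p was 0.0264 (quasi-likelihood test of edgeR, Benjamini-Hochberg), and the call held in 9 of 15 alternative settings. It was lost with DESeq2 (adjusted p = 0.0573) and, in edgeR, with WT a and WT b summed (adjusted p = 0.0604), without WT a (0.0745), without WT b (0.0664), and without KO a or KO b (0.101 each), while the log2 fold change stayed between -0.10 and -0.08.

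*Mkl1*, which encodes the actin-sensing coactivator MRTF-A and is annotated as *Mrtfa* (ENSMUSG00000042292.16, chr15:81012281-81190757, minus strand), was at 26.5, 28.0 and 25.9 CPM in WT and 28.0, 23.1 and 30.1 CPM in KO libraries. KO b was the lowest and KO c the highest of all libraries, so the KO range enclosed the WT range. The log2 fold change was 0.02 (95% interval -0.14 to 0.18), and without WT c it was -0.01. The KO spread was 13.2% of the mean, against a counting error of 4.6%, the widest excess in the set in percentage points. Relative to counting error, the WT spreads of *Acta2* (3.76% against 1.01%) and *Smtn* (5.67% against 1.79%) were wider.

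**Figure D2:**
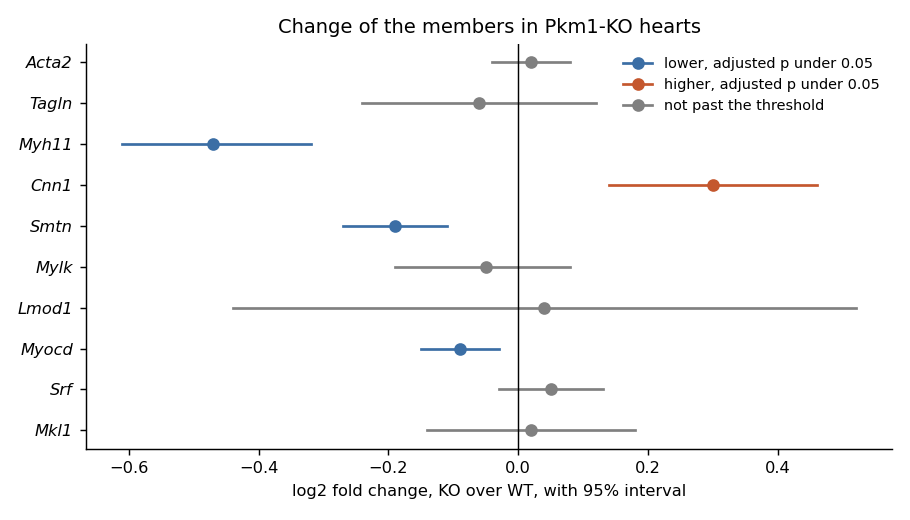
Log2 fold change of each gene in KO over WT hearts from edgeR's quasi-likelihood fit, with its 95% interval as a horizontal line; colour marks genes lower, higher or not past an adjusted p of 0.05. *Myh11* (-0.47) and *Cnn1* (0.30) lie furthest from 0 on opposite sides, and the interval of *Lmod1* is the widest.

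Because *Myh11* fell and *Cnn1* rose, their counts were also compared within each library. The ratio of *Cnn1* to *Myh11* counts was 0.634, 0.735 and 0.627 in WT and 1.13, 1.12 and 1.16 in KO libraries. The ratio of *Acta2* to *Myh11* counts was 22, 22.8 and 22.2 in WT and 31.7, 31.7 and 30.8 in KO libraries. Neither ratio depends on library scaling, and in both the genotypes were apart, as they were for *Acta2* to *Smtn* (3.08 to 3.20 in WT and 3.50 to 3.73 in KO) and *Cnn1* to *Smtn* (0.0867 to 0.101 in WT and 0.130 to 0.132 in KO). These ratios restate the differences already tested, in pairs that hold genes picked because they fell or rose, so no test was run on them. The ratio of *Myocd* to *Srf* counts was 1.91 to 2.11 in WT and 1.77 to 1.93 in KO, and there the genotypes overlapped.

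Summed over the 7 contractile genes, the level was 817, 828 and 879 CPM in WT and 829, 814 and 825 CPM in KO libraries. The sum overlapped between genotypes, was highest in WT c and consisted mostly of *Acta2* counts. Within WT, WT c was the highest library for *Acta2*, *Tagln*, *Myh11*, *Smtn* and *Srf*. Within KO, KO a was the lowest library for *Tagln*, *Mylk* and *Lmod1*.

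Levels of different genes were compared as CPM per kilobase of merged exons. In WT hearts *Acta2* stood far above the rest at 258 ± 9.72 CPM per kb (SD, n = 3), followed by *Srf* at 55.2 ± 2.71, *Myocd* at 50.6 ± 0.589 and *Smtn* at 41.3 ± 2.34 CPM per kb. A lower group began with *Tagln* at 8.85 ± 0.661, *Cnn1* at 6.17 ± 0.386 and *Mkl1* at 4.38 ± 0.179 CPM per kb and went on with *Myh11* at 3.34 ± 0.143, *Mylk* at 2.74 ± 0.0955 and *Lmod1* at 0.461 ± 0.0492 CPM per kb. No neighbours in that order overlapped in WT libraries. In KO hearts *Tagln* (8.50 ± 0.861) and *Cnn1* (7.60 ± 0.242 CPM per kb) overlapped, and *Mylk* (2.65 ± 0.172) was above *Myh11* (2.41 ± 0.0321 CPM per kb). With the longest transcript as the length, *Myocd* (63.6 CPM per kb) came before *Srf* (61.1) and *Mylk* (3.95) before *Myh11* (3.88) in WT hearts, so the order of those pairs depends on the gene model.

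**Figure D3:**
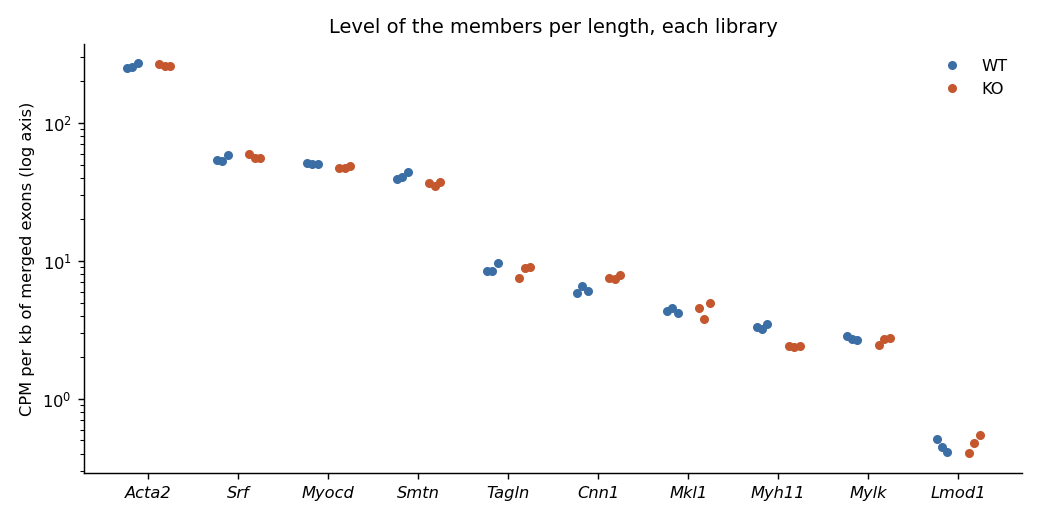
Level of the 10 genes in each library as TMM-scaled CPM per kilobase of merged exons on a log axis, ordered by the WT mean, with WT and KO points side by side. *Acta2* lies at 252 CPM per kb or more in every library and *Lmod1* is lowest, with genotype means of *Srf*, *Myocd* and *Smtn* between 36.3 and 57.1.

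The contractile genes belong to families whose other members serve sarcomeres or all cells. Of 19 such relatives 16 were in the table (*Tagln3*, *Smtnl1* and *Mylk2* were not analysed here), of which 6 fell and 4 rose, and their median log2 fold change was -0.06 beside 0.00172 for all genes. Of these relatives 62.5% were called, beside 30.3% of all genes. The leiomodin of the sarcomere, *Lmod2*, fell from 298 ± 15.7 to 97.8 ± 1.53 CPM (log2 fold change -1.60), whereas *Lmod1* differed by less than its spread. Skeletal alpha actin, *Acta1*, rose from 25.9 ± 2.63 to 53.9 ± 1.38 CPM (log2 fold change 1.07), and the nonmuscle myosin *Myh14* fell from 2.93 ± 0.144 to 1.62 ± 0.59 CPM (log2 fold change -0.83). *Mylk4*, a kinase of the same family as *Mylk*, rose by 0.27 on the log2 scale. The relatives named in this paragraph were picked because they passed. The largest adjusted p among them was 0.0205, for *Mylk4*, in the quasi-likelihood test of edgeR with Benjamini-Hochberg adjustment.

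Per kilobase, the smooth muscle member was in most families not the most abundant form in these hearts. The relatives named below were chosen after their values were seen, and *Cnn3* and *Smtnl2* among them did not pass the test between genotypes. Cardiac alpha actin, *Actc1*, was at 5479 ± 20.5 CPM per kb in WT hearts against 258 for *Acta2*. The kinase of cardiomyocytes, *Mylk3*, was at 97.1 CPM per kb against 2.74 for *Mylk*, *Lmod2* at 151 against 0.461 for *Lmod1*, and nonmuscle *Myh10* at 47.3 against 3.34 for *Myh11*. *Tagln2*, at 61.9 CPM per kb, exceeded *Tagln* at 8.85, and *Cnn3*, at 55.5, exceeded *Cnn1* at 6.17. Smoothelin was the exception, with *Smtn* at 41.3 and its relative *Smtnl2* at 18.9 CPM per kb. Shared 50-base words were few for *Acta2* (0.326%, with actin genes) and *Myh11* (0.34%, with *Myh9* and *Myh10*) and absent for *Cnn1*, *Lmod1*, *Srf* and *Mkl1*.

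Of 30 other smooth muscle contractile and cytoskeletal genes 14 fell, 3 rose and 13 did not pass, with a median log2 fold change of -0.12. The share called was 56.7%, beside 30.3% of all genes. *Synpo2*, an actin-bundling protein of smooth muscle and Z-discs, fell from 66.2 ± 3.46 to 49.6 ± 1.95 CPM (log2 fold change -0.41). *Tpm1*, a tropomyosin of both smooth and cardiac muscle, fell from 2764 ± 220 to 2237 ± 55.6 CPM (log2 fold change -0.31), and *Pdlim7*, an actin-associated LIM protein, fell by 0.25 on the log2 scale. *Myl9*, the regulatory light chain that *Mylk* phosphorylates, rose from 323 ± 6.92 to 410 ± 6.53 CPM (log2 fold change 0.34, standard error 0.0295), in the same direction as *Cnn1*. The largest adjusted p among these was 0.00189, for *Pdlim7*, in the quasi-likelihood test of edgeR with Benjamini-Hochberg adjustment. The genes of this list are in large part used by cardiomyocytes too.

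Of 16 other SRF cofactors and regulators 6 fell and 10 did not pass (37.5% called, beside 30.3% of all genes), with a median log2 fold change of -0.08. *Abra*, an actin-binding activator of SRF in striated muscle also called STARS, fell from 34.9 ± 1.32 to 10.7 ± 1.35 CPM (log2 fold change -1.71). *Klf4*, a factor that represses smooth muscle genes, fell from 41.6 ± 2.7 to 20.5 ± 1.02 CPM (log2 fold change -1.01), and *Fhl2*, a LIM protein that binds SRF, fell from 576 ± 5.23 to 449 ± 1.93 CPM (log2 fold change -0.36). *Prkg1*, the cGMP-dependent kinase of smooth muscle, fell by 0.16 on the log2 scale, with the largest adjusted p of these (0.0239, quasi-likelihood test of edgeR, Benjamini-Hochberg). *Srf* and *Mkl1* themselves did not pass, and the difference between them and these regulators was not tested.

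SRF works with myocardin-related factors on cytoskeletal genes and with ternary complex factors (TCF) on immediate early genes. Of 26 actin-MRTF-SRF cytoskeletal targets 13 fell and 1 rose (53.8% called, beside 30.3% of all genes), with a median log2 fold change of -0.09. The matricellular genes *Ctgf* and *Cyr61*, which also respond to YAP, fell with log2 fold changes of -3.29 and -2.54, while those of *Filip1l* and the integrin *Itga5* were -0.46 and -0.45. The gene that rose, *Tgfb1i1*, an adaptor of focal adhesions that was named after its value was seen, rose by 0.18. Of 16 TCF-SRF immediate early targets 15 fell and 1 did not pass (93.8% called), with a median log2 fold change of -1.21. *Fos*, *Atf3*, *Fosb* and *Egr1* fell with log2 fold changes of -4.02, -3.12, -3.10 and -2.57. Every one of these named genes passed the quasi-likelihood test of edgeR with Benjamini-Hochberg adjustment. The list names give known regulators, and the activity of SRF and its partners was not measured.

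In the fetal cardiac list of 19 SRF-myocardin targets, 10 fell and 7 rose (89.5% called, beside 30.3% of all genes), with a median log2 fold change of -0.18. The 30.3% covers genes at all levels and was not matched to the abundant genes of this list. Some calls were small, such as *Myh7* (0.05, libraries overlapping) and *Actc1* (0.06), both named after their values were seen. The median absolute log2 fold change of all genes was 0.131. The natriuretic peptide gene *Nppb* fell from 318 ± 7.86 to 183 ± 1.15 CPM (log2 fold change -0.80), and *Lmod2*, given above, fell most. *Myl4*, the light chain of atrial and embryonic muscle, rose from 142 ± 6.03 to 305 ± 9.58 CPM (log2 fold change 1.10), next to *Acta1*. These lists share some genes with each other (*Tpm1*, *Fhl2*, *Lmod2* and *Acta1* among them), so their counts are not separate observations.

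**Figure D4:**
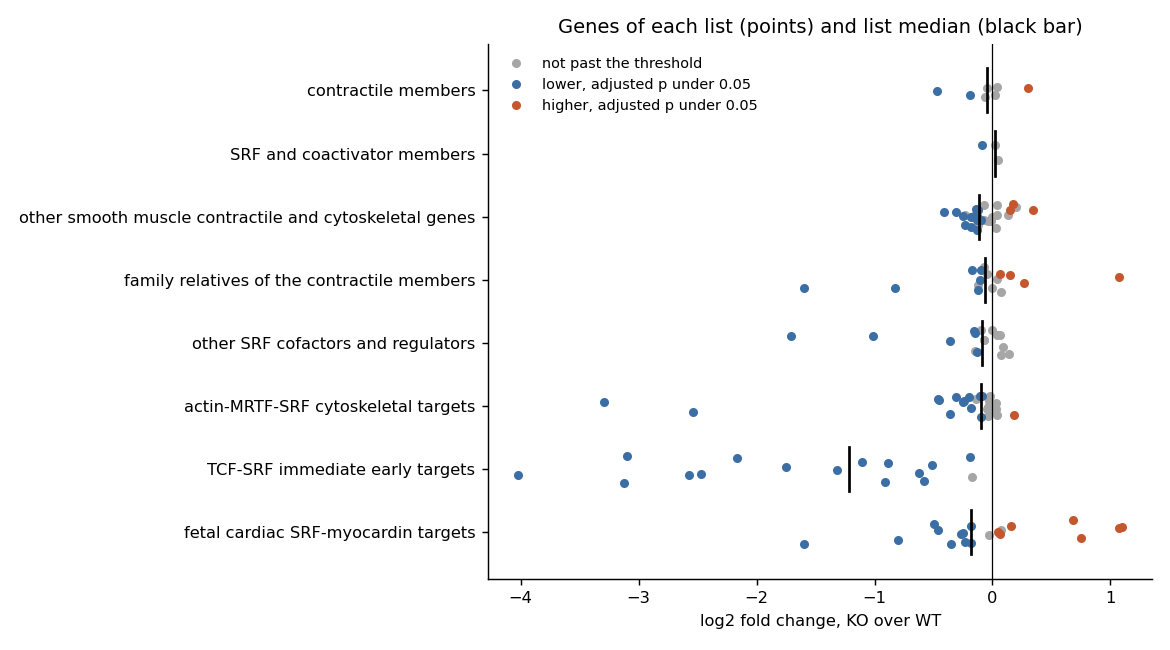
Log2 fold change of every measured gene of each list, KO over WT, as points coloured by whether the gene was lower, higher or not past an adjusted p of 0.05 in edgeR's quasi-likelihood test, with the list median as a black bar. The 10 smooth muscle and SRF-myocardin genes lie between -0.47 and 0.30, the immediate early targets reach -4.02 with a median of -1.21, and the other list medians lie between -0.18 and -0.06.

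Markers of the cells that could hold these transcripts were summed in each library. Counts called are read against the 30.3% of all genes that passed: 37.5% of the smooth muscle markers, 30% of the pericyte and 25% of the elastic wall markers passed, near or below that share. All 8 smooth muscle markers were in the table, 7 of them among the 10 genes above, and their sum was 823 to 882 CPM in WT and 817 to 833 CPM in KO, so it overlapped. The eighth, the enteric actin *Actg2*, was at 4.18 ± 1.26 and 3.84 ± 0.809 CPM (SD, n = 3 each) and did not pass. Of 10 pericyte and mural markers 3 fell (*Rgs5*, *Abcc9* and *Cspg4*, log2 fold changes -0.27, -0.16 and -0.15), and the sum was 1147 to 1183 CPM in WT and 1073 to 1098 CPM in KO. Of 8 elastic vessel wall markers 2 fell, *Mfap5* (log2 fold change -0.60) and *Fbn1* (-0.13), and the sum was 737 to 775 CPM in WT and 698 to 717 CPM in KO.

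Among the other marker lists, the share called ran from 25% for immune markers and 37.5% for epicardial markers to 90% for ventricular cardiomyocyte markers. Of 10 ventricular cardiomyocyte markers 7 fell and 2 rose, with a sum of 117698 to 120890 CPM in WT and 113782 to 114964 CPM in KO. Most of that sum was *Ttn* (78884 ± 310 CPM in WT and 76438 ± 255 CPM in KO). *Ttn* was called lower at a log2 fold change of -0.05, so the 90% includes small changes in abundant genes. The share of all genes was not matched for level. Of 7 atrial markers 3 rose (*Nppa*, *Myl7* and *Myl4*) and 4 did not pass, and the sum was 638 to 643 CPM in WT and 1048 to 1073 CPM in KO, while *Sln* was not analysed here. Of 10 fibroblast markers 5 fell, with a sum of 4040 to 4083 CPM in WT and 3756 to 3824 CPM in KO. Of 10 endothelial markers 3 fell and 2 rose (1342 to 1343 and 1308 to 1333 CPM), of 8 epicardial markers 3 rose (150 to 152 and 165 to 177 CPM), and of 8 immune markers 2 fell, with sums that overlapped (41.2 to 44.8 and 38.3 to 44.6 CPM). Of 3 measured erythroid markers 1 fell and 1 rose (33.5 to 35.5 and 35.8 to 43.0 CPM). Of the 2 measured skeletal muscle markers, *Ckm*, which the heart also expresses, fell (log2 fold change -0.12) and *Mylpf* was at 1.42 ± 0.32 and 1.15 ± 0.354 CPM. The part of these differences in the values of *Myh11*, *Smtn*, *Myocd* and *Cnn1* was not tested.

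**Figure D5:**
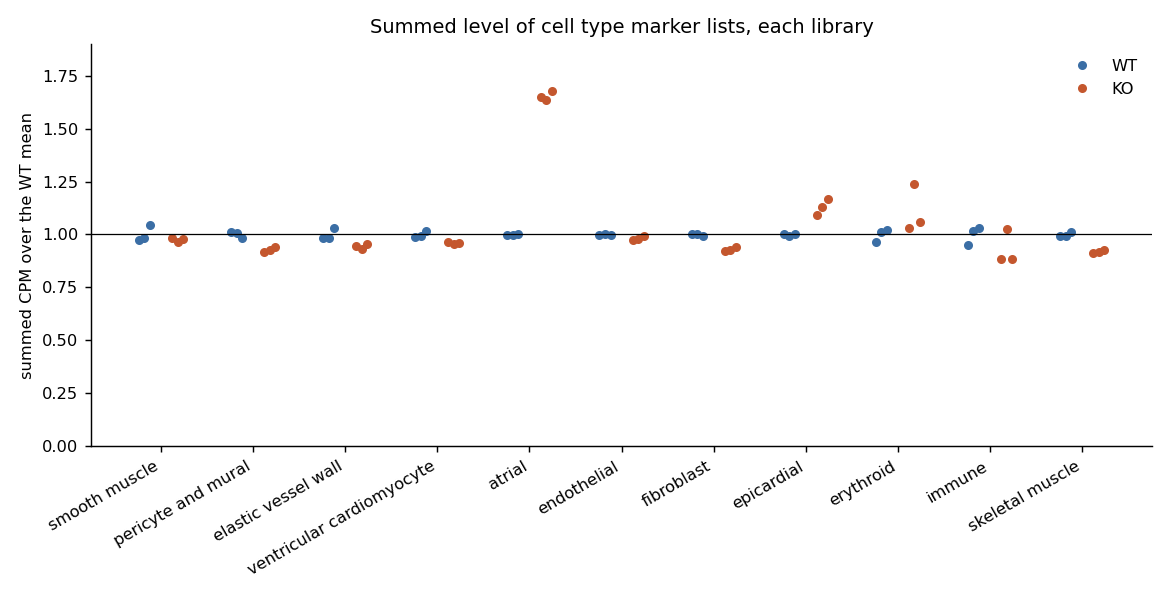
Summed CPM of each cell type marker list in each library, divided by the mean of the WT libraries, with WT and KO points side by side and a line at 1. The smooth muscle and immune sums overlap between genotypes. The pericyte, elastic wall, cardiomyocyte, endothelial, fibroblast and skeletal muscle sums lie slightly lower in KO libraries. The epicardial and erythroid sums lie higher in KO libraries, and the atrial sum lies well above 1 in them. Each sum is weighted to its most abundant genes.

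Over the 6 libraries, the genes whose log2 CPM followed the mean of the 7 contractile genes most closely, among 9485 genes with at least 10 CPM, were *Elmo1* (Pearson r = 0.995), *Prdm2* (0.977), *Agbl5* (0.974), *Tgfb1* (0.974) and *Dnajc25* (0.972). Their log2 fold changes ran from -0.23 for *Tgfb1* to -0.05 for *Prdm2*. With 6 libraries of 2 genotypes and so many candidates these values are a description only.

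The promoters were read because the study drew on NF-Y, which binds the letters CCAAT, and because SRF binds the CArG box. RefSeq promoter windows of 300 bases, from 250 bases before to 50 after the start, were given for 7 of the 10 genes (GRCm38.p6), and *Tagln*, *Myh11* and *Myocd* had none. CCAAT, on either strand, was found in 6 of the 7, all but *Acta2*, and in 37.4% of 32851 promoter windows. The 7 are genes, with 8 windows in all because *Mkl1* had 2, whereas the shares over all promoters count windows. A CArG box was found in 1 of the 7, *Srf* itself, and in 1.63% of all windows. With 1 core base left free, the CArG box was found in *Acta2*, *Srf* and *Mkl1*, 3 of 7, and in 9.98% of all windows. The start is that of RefSeq, and the *Mylk* and *Smtn* windows lie within the annotated span of the gene. The CCAAT matches of *Mkl1* lie inside annotated exons, as does the *Smtn* match at -28. The matches of *Acta2* and *Mkl1* to the CArG box with 1 core base free also lie inside annotated exons. A match is a run of letters, not a site shown to be bound.

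The stretches printed are those of *Srf*, which holds both motifs, and of *Cnn1* and *Smtn*, which moved in opposite directions and both hold CCAAT. Capitals mark CCAAT and the CArG boxes, and the stretches are from chr17:46556200-46556318 (minus strand), chr9:22099110-22099215 (plus strand) and chr11:3539338-3539372 (minus strand).
Srf: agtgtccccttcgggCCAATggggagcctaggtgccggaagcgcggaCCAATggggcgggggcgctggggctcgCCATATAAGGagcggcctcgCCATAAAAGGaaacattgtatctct
Cnn1: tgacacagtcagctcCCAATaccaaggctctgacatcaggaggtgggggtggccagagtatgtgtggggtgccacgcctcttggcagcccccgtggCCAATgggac
Smtn: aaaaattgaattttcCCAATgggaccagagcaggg
Counted in bases from the start, CCAAT began at -141 and -109 in *Srf* and the CArG boxes at -82 and -62. In *Cnn1*, which rose, CCAAT began at -128 and -47, and in *Smtn*, which fell, at -65 in the stretch shown. *Mylk*, *Lmod1* and *Mkl1*, which did not pass, held CCAAT as well. Whether the letters bear on any change described here was not tested.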

How the data were processed

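Total RNA of E18.5 hearts was depleted of ribosomal RNA and sequenced as paired ends. Per the labels, adapters were trimmed with cutadapt 1.18, and reads were aligned with HISAT2 to mm10 and assembled with StringTie. The counting program, its strand setting and the filter on genes are not given in the sources used here. Raw counts for each gene symbol were deposited, with the lowest gene at 59 counts over the 6 libraries. Columns of the authors' own edgeR comparison (false discovery rates, p-values, mean log2 CPM and log2 fold changes) were not used. How the counting treated reads shared by overlapping or related genes is likewise unknown. The study's methods state 3 biological replicates per genotype.

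The analysis used edgeR 4.0.16 in R 4.3.3. Low genes were removed by filterByExpr (5 left out), and the rest were scaled with TMM and tested two-sided with the quasi-likelihood test, genotype being the only term, with Benjamini-Hochberg adjustment over all 13804 genes. The threshold was an adjusted p of 0.05. Fold changes and 95% intervals come from that fit. Symbols were matched to the GRCm38 annotation (13299 by name, 416 by an older symbol, 67 by RefSeq, 27 unmatched). Other settings tried were RLE size factors, TMM without the 5 genes above 1% of counts, no filter, at least 10 counts in every library, DESeq2 1.42.0, edgeR's exact test, voom of limma 3.58.1, genes on X and Y left out, WT a and WT b summed, and each library left out in turn. WT a and WT b were summed because they were the closest pair of WT libraries (chi-square per degree of freedom 1.56), and no KO pair was summed. The list and marker counts and the share of all genes not overlapping without WT c were added after the data were seen. The code of the quasi-likelihood fit, and no other part, was tested on simulated counts of 3 against 3 libraries. Of 200 genes changed by a fold of 1.2 it recovered 93, and of 200 changed by 1.5 it recovered 164. Changes of a fold of 1.2 were thus often missed. Python 3.11.15 and matplotlib 3.10.9 drew the figures.

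The genes and lists were chosen with earlier results of these data known. Named genes are the 10 members, up to 4 genes per list past the threshold with the largest absolute log2 fold change and a mean of at least 1 CPM, the 5 genes most alike to the contractile mean, and *Pkm*, except where the text says otherwise. A further list is not reported here.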

Additional observations from a re-analysis of the deposited data

How the results depend on the processing

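No paired analysis was possible because no column of the table names its replicate. *Myh11*, *Cnn1* and *Smtn* kept their direction and their call in all 15 alternatives, with log2 fold changes of -0.50 to -0.44, 0.26 to 0.35 and -0.22 to -0.14. *Myocd* kept its direction in all 15 and its call in 9. When each library was omitted in turn, the number of members called higher ranged from 1 to 2, the latter without WT c. Across the same omissions the log2 fold change changed sign for 4 members that did not pass, *Tagln* (-0.112 to 0.0284), *Mylk* (-0.0917 to 0.00127), *Lmod1* (-0.0739 to 0.153) and *Mkl1* (-0.0655 to 0.111). The cause was not tested. The genes called over the whole table were fewest with DESeq2, 1639 lower and 1362 higher. Without WT c, 6 rather than 5 fibroblast markers were lower and 1 more elastic vessel wall marker was higher, while the other gene and marker lists reported had the counts of lower and of higher genes that all 6 libraries gave. Depth limits *Lmod1* most, at 25 to 40 counts per library, and 3 libraries per genotype limit every interval given.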
